A study of Mus musculus with 8 samples.

Results

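The mitochondrial ribosomal proteins were followed in mouse brain after methanol as all array probes whose platform gene symbol begins with Mrpl or Mrps and a number. The array carried 110 such probes for 76 genes, among 25697 probes for 16593 named genes. Of these, 95 probes for 71 genes were detected (detection p under 0.05) on at least 4 of the 8 arrays and were compared, among 11938 compared probes for 8528 genes. The other 15 probes were not compared, 12 of them because no array detected them, and 5 genes (Mrpl19, Mrpl21, Mrpl32, Mrps14 and Mrps36) were left with no compared probe. Mrps36 bears the name of the family but is now known as a subunit of the oxoglutarate dehydrogenase complex. At the edge of the detection minimum, 1 probe of Mrpl45 (log2 intensity 5.47 with methanol, 5.42 with saline) and 1 of Mrpl49 (5.48 and 5.29) were detected on exactly 4 arrays. Just below it, another probe of Mrpl45 (5.09 and 5.02), another of Mrpl49 (5.13 and 5.28) and 1 of Mrps10 (5 and 4.94) were detected on 1 array each.

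Transcripts were measured on Illumina MouseRef-8 arrays, on which biotin-labelled RNA binds to oligonucleotides held on beads. By the sample labels, the methanol group (4 arrays) came from male mice given 120 mg/kg methanol in 350 µl, and the saline group (4 arrays) from male mice given 350 µl of normal saline, with brain taken 2 h later and no route named. The study's methods instead describe inhalation of methanol vapour against water vapour for a shorter time, in larger groups of male BALB/c mice, an inbred strain, and the age is given in neither. The labels do not say that each array is 1 mouse, so each p-value reflects only how these 8 samples varied, which may in part be technical. The label male was not borne out: Xist, the RNA of X inactivation, was detected on 8 arrays by both of its probes (8.65 to 8.98 and 6.95 to 7.16 on the log2 scale), while the Y-linked genes Kdm5d and Eif2s3y were detected on 0 arrays and Uty on 4. Between 11291 and 12366 probes were detected per methanol array and between 11855 and 12199 per saline array, and log2 intensities correlated at 0.981 to 0.989 within the groups and 0.973 to 0.984 between them.

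Markers of neurons, astrocytes and oligodendrocytes were present in both groups. The summed level of 7 neuron probes was 14.84 to 14.92 with methanol and 14.65 to 14.87 with saline (log2 of the sum), and 0 of the 7 passed the test. The level over 6 astrocyte probes was 14.10 to 14.25 and 14.02 to 14.13 (0 called), over 8 oligodendrocyte probes 14.34 to 14.81 and 13.81 to 14.38 (0 called), and over 3 endothelial probes 10.23 to 10.53 and 10.43 to 10.79 (0 called). Intensities were summed before the log, so the oligodendrocyte level is mostly that of the brightest probe, ILMN_2737200 of Mbp (change 0.41, not called). The other oligodendrocyte probes changed by -0.16 to 0.23, and the median over the 8 was 0.04. Among markers of 3 other cell types, all those of red cells and 1 each of microglia and choroid plexus passed the test. The 3 red cell probes (Hba-a1, Hbb-b2 and Alas2) all fell, from a summed level of 14.05 to 14.44 with saline to 12.33 to 12.63 with methanol. Of 4 microglial probes, P2ry12 fell (-0.35, SE 0.090, limma adjusted p = 0.0368), while Cx3cr1 changed by -0.31 and the 2 Aif1 probes by 0.13 and 0.02, none of them called. The summed level was 10.19 to 10.59 against 10.58 to 10.75. Of 3 choroid plexus probes, Kl fell (-1.17, SE 0.31, limma adjusted p = 0.042), while Ttr (-2.04) and Clic6 (-1.03) were not called and their groups overlapped. The summed level was 8.76 to 9.85 against 8.30 to 14.44, with saline 3 the highest for all 3 probes. The part of these cells in the results below was not tested. In a whole-brain extract, fewer cells of a type and less RNA per cell cannot be told apart.

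Mitochondria keep a ribosome of their own, which translates only the few messages of the mitochondrial genome, all of them for subunits of the respiratory chain and ATP synthase. Its rRNAs are transcribed inside the organelle, but all its proteins are encoded in the nucleus, made in the cytosol and imported. The small subunit binds and decodes the message, and the large subunit joins amino acids and passes the chain out through a tunnel that faces the inner membrane. Some of these proteins descend from those of the bacterial ancestor, whereas others were added in mitochondria. In brain, neurons depend on oxidative phosphorylation, and inherited defects of several of these proteins in humans cause disease that can involve the brain.

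What the genes share outside the measured values was looked at first in their promoters. RefSeq promoter windows (GRCm38.p6, 250 bases before to 50 after the start of the gene) matched 63 of the 71 compared genes, with 69 windows, and were set beside all 32851 windows. Motifs of 3 factors long tied to nuclear genes of mitochondria were searched on both strands: CCGGAAG for ETS factors such as NRF-2 (GABP), GCGCA and GCGC with any 1 base between them for NRF-1, and AAGATGGC for YY1, and also TATAAA for the TATA box. No motif contains another. The ETS motif stood in 36.2% of the members' windows against 8.86% of all windows, the NRF-1 motif in 15.9% against 4.6%, and the YY1 motif in 15.9% against 2.75%. TATAAA stood in 7.25% against 13.6%, and the median GC content was 58.7% against 52.7%. Over the 250 upstream bases alone the shares were 26.1% against 6.91% for ETS, 11.6% against 3.74% for NRF-1 and 4.35% against 1.56% for YY1. These are matches of letters, which say nothing about binding, and no test was made of them.

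The stretches around a motif are shown for members described below, to let the shared letters be seen, each 5′ to 3′ on the strand of its gene, with the motif in capitals (GRCm38.p6). Mrpl12 and Mrpl57 carried the NRF-1 motif, which in Mrpl12 reads as its reverse complement:
Mrpl12, chr11:120484541-120484580, + strand: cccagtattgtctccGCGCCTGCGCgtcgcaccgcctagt
Mrpl57, chr14:57826167-57826206, + strand: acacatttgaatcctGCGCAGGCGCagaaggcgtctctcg
The ETS motif lay upstream of these 5 genes, read on either strand:
Mrpl27, chr11:94653721-94653757, + strand: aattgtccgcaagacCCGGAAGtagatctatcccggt
Mrpl3, chr9:105053234-105053267, + strand: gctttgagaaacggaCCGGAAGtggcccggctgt
Mrps16, chr14:20393543-20393579, - strand: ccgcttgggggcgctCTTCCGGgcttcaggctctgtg
Mrps22, chr9:98601680-98601705, - strand: caaaaacctctcgagCCGGAAGttgc
Mrps26, chr2:130563728-130563756, + strand: ggtgctccgcggccaCTTCCGGgccgggc
The YY1 motif, read here as its reverse complement, lay upstream of Mrps11:
Mrps11, chr7:78783009-78783046, + strand: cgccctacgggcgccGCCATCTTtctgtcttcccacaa
Of the 16 genes with a probe lower on every methanol array, described below, 7 are among those shown (Mrpl12, Mrpl57, Mrpl27, Mrps16, Mrps22, Mrps26 and Mrps11), and Mrpl3 had a probe higher on every array. Mrps11 and Mrpl3 also had a second probe with a change of the opposite sign (0.07 and -0.15). The lower genes had 16 windows, which cover 15 of the 16 genes. The upstream shares in these windows were near those of all members, at 25% against 26.1% for ETS, 12.5% against 11.6% for NRF-1 and 6.25% against 4.35% for YY1. Of the 5 genes with a probe higher on every methanol array, 4 had a window and Mrps35 had none. Among these 4 windows, 1 had the ETS motif upstream, 1 the YY1 motif and 0 the NRF-1 motif. The sequence of Mrps12, 1 of these higher genes, is not shown. The 250 upstream bases are shown in lower case for Mrpl14 and Mrpl47, the members with the smallest adjusted p in each direction, since none of the 4 motifs lies in them:
Mrpl14, chr17:45686099-45686348, + strand: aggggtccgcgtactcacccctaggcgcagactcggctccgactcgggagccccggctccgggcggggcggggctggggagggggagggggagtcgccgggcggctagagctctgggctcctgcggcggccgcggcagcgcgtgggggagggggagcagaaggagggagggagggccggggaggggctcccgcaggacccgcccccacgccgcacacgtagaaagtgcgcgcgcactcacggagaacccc
Mrpl47, chr3:32736756-32737005, - strand: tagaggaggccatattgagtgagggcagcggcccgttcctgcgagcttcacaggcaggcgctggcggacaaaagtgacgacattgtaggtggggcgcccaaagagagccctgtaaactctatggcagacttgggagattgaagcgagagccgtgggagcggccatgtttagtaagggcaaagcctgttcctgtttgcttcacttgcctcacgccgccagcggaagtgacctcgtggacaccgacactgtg
In Mrpl14 an NRF-1 motif began 4 bases past the start of the gene.

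Between methanol and saline, 6 of the 95 probes passed the test. Mrpl14, Mrps7, Mrps35 and Mrps12 rose, by 1.24 to 1.46 times, and Mrpl47 and Mrpl11 fell, by 1.29 to 1.33 times. The test was limma's moderated test, two-sided, with Benjamini-Hochberg adjustment over all 11938 probes at 0.05. Its 6 calls made up 6.32% of the members, against 5.6% of all compared probes. In the higher direction 4 members were called (background 3.12%) and in the lower direction 2 (background 2.49%). Thus the share of called members was near that of all probes.

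**Figure D1:**
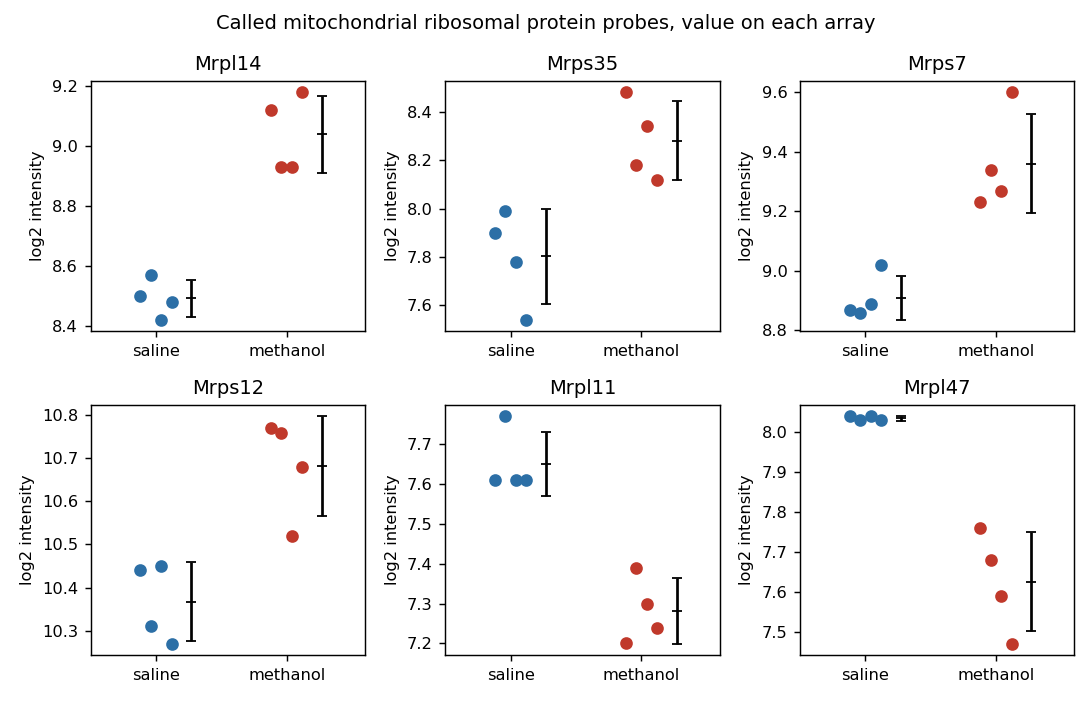
Log2 intensity of the 6 called probes on each array (points), with the mean and SD of each group (bars, n = 4 arrays). The methanol points of Mrpl14, Mrps35, Mrps7 and Mrps12 all lie above the saline points, and those of Mrpl11 and Mrpl47 all lie below them.

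Mrpl14, a protein of the large subunit at the interface between the subunits, where the assembly factor Malsu1 binds in human mitochondria, had the smallest p. Its log2 intensity was 9.12, 8.93, 8.93 and 9.18 on methanol arrays 1 to 4, and 8.50, 8.57, 8.42 and 8.48 on saline arrays 1 to 4. The lowest methanol array lay above the highest saline array. The change was 0.55 (SE 0.087, 1.46-fold, limma adjusted p = 0.0018). It kept its call in 18 of 18 alternative analyses, at 0.41 to 0.58.

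Mrps7 forms part of the head of the small subunit and is the counterpart of a bacterial protein that starts assembly of the head. One of its 2 probes, ILMN_2981818, read 9.23, 9.34, 9.27 and 9.60 with methanol and 8.87, 8.86, 8.89 and 9.02 with saline. All methanol arrays were above all saline arrays, with methanol 4 the highest. The change was 0.45 (SE 0.093, 1.37-fold, limma adjusted p = 0.0104). Its other probe, ILMN_2981821, changed by 0.06 (SE 0.094, limma adjusted p = 0.79). The call held in 17 of 18 alternatives and was lost with median scaling, at a change of 0.45.

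Mrps35 and Mrps12 both belong to the small subunit, the first added in mitochondria and the second a homologue of the bacterial protein at the decoding centre. Mrps35 read 8.48, 8.18, 8.34 and 8.12 with methanol and 7.90, 7.99, 7.78 and 7.54 with saline. All methanol arrays were above all saline arrays, and methanol 4 and saline 2 came closest. The change was 0.48 (SE 0.12, 1.39-fold, limma adjusted p = 0.0267). It was no longer called without methanol 1 (0.41), methanol 3 (0.46), saline 3 (0.47) or saline 4 (0.39), nor with median scaling (0.47) or without a variance trend (0.48).

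Mrps12 read 10.77, 10.76, 10.52 and 10.68 with methanol and 10.44, 10.31, 10.45 and 10.27 with saline. Methanol 3 was the array nearest to the saline group. The change was 0.32 (SE 0.080, 1.24-fold, limma adjusted p = 0.0334). The call ended without methanol 1 (0.29), methanol 2 (0.29), methanol 4 (0.32), saline 2 (0.30), saline 3 (0.34) or saline 4 (0.28), and also with median scaling (0.34) or without a variance trend (0.32).

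Mrpl47, the counterpart of bacterial L29 at the mouth of the exit tunnel, fell on 1 of its 2 probes. That probe, ILMN_2723579, read 7.76, 7.68, 7.59 and 7.47 with methanol and 8.04, 8.03, 8.04 and 8.03 with saline. The saline arrays were nearly equal and all above the methanol arrays. The change was -0.41 (SE 0.093, 1.33-fold lower, limma adjusted p = 0.0188). It lost its call without methanol 4 (-0.36), saline 3 (-0.41) or saline 4 (-0.41), and with median scaling (-0.43).

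Mrpl11 sits at the base of the stalk that receives translation factors. It read 7.20, 7.39, 7.30 and 7.24 with methanol and 7.61, 7.77, 7.61 and 7.61 with saline. The groups did not overlap, and saline 2 stood above the other saline arrays. The change was -0.37 (SE 0.095, 1.29-fold lower, limma adjusted p = 0.0364). The call did not survive leaving out methanol 1 (-0.34), methanol 3 (-0.37), methanol 4 (-0.35), saline 2 (-0.33), saline 3 (-0.38) or saline 4 (-0.38), nor median scaling (-0.39) or testing all probes with no filter (-0.37).

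The probes that followed Mrpl14 most closely over the 8 arrays were Mrpl3 and Mrps7 (both r = 0.91), Mrps12 (0.85), Mrps35 (0.83) and Mrps18c (0.68). These Pearson correlations include the difference between the groups and describe 8 arrays only.

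Beyond single calls, most members had a slightly lower level with methanol. A change below 0 was measured for 71 of the 95 probes (74.7%), against 50.5% of all compared probes, and the median change was -0.08 against 0.00 over all. The changes were small: 69 probes had an absolute change under 0.2 on the log2 scale and 7 had one over 0.4. The probes of 1 array share that array's RNA, so they are not independent of each other. No test was made of the shift.

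**Figure D2:**
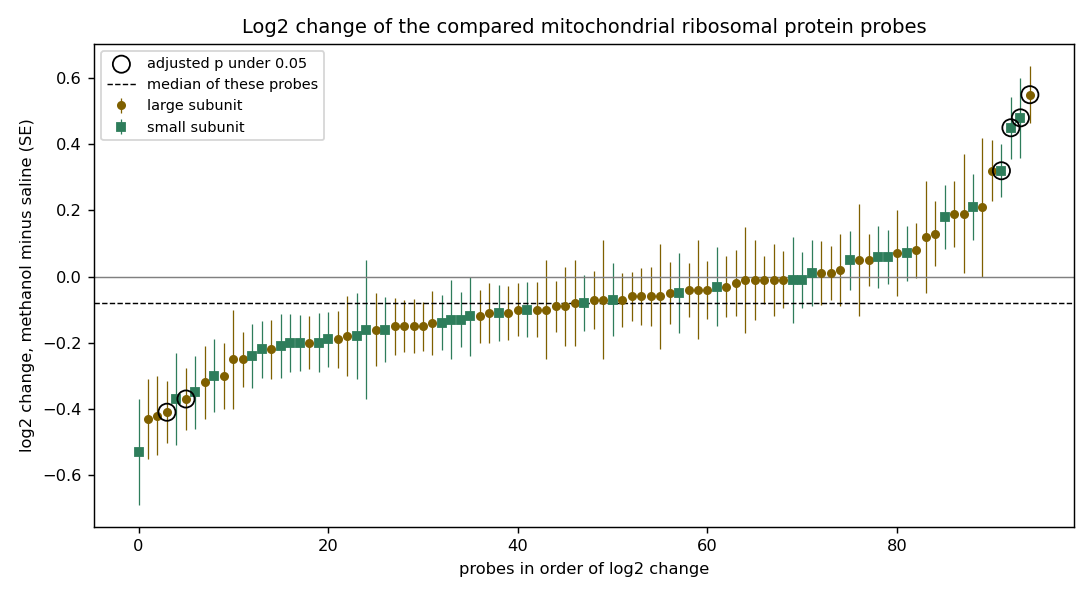
Log2 change (methanol minus saline, with SE) of the 95 compared probes in order of their change, by subunit, with the 6 called probes ringed and the median as a dashed line. Most probes lie between -0.2 and 0, and the called probes lie at both ends.

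**Figure D3:**
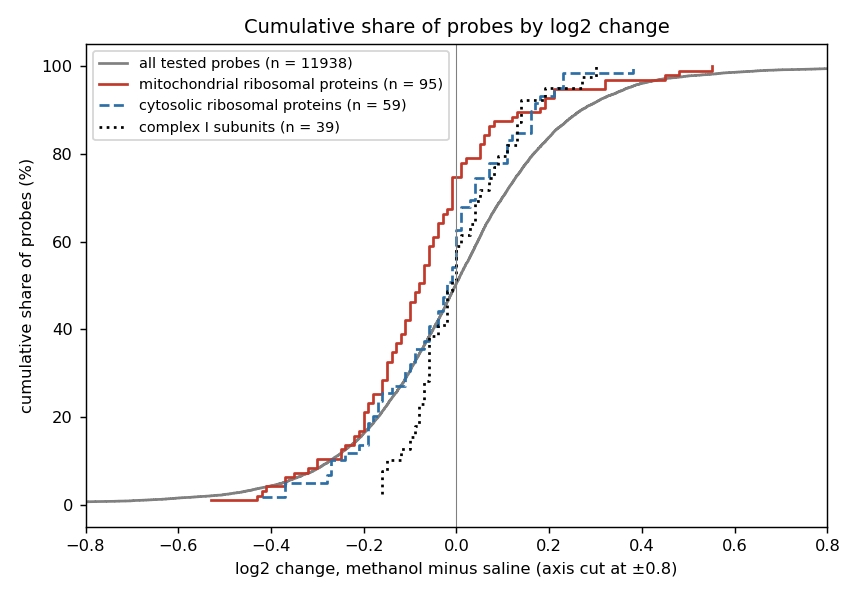
Cumulative share of probes (%) against log2 change for the mitochondrial ribosomal proteins, the cytosolic ribosomal proteins, complex I subunits and all compared probes. At a change of 0 the mitochondrial ribosomal curve has reached 74.7%, against 50.5% for all probes.

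Lower values prevailed in both subunits and among proteins of either ancestry. In the large subunit 45 of 59 probes lay below 0 (median -0.07, 1 called higher and 2 lower), and in the small subunit 26 of 36 (median -0.11, 3 called higher and 0 lower). The called shares were 5.08% and 8.33%, against 5.6% of all compared probes (3.12% higher and 2.49% lower). These calls are few, and no test compared the subunits. Among homologues of bacterial proteins 40 of 55 probes lay below 0 (median -0.10), and among proteins added in mitochondria 31 of 40 (median -0.07). The called shares were 9.09% (3 higher and 2 lower) and 2.5% (1 higher and 0 lower), against the same 5.6%. No test compared these 2 classes. The cytosolic ribosomal proteins, counted in the same fit, had 34 of 59 probes below 0 with a median of -0.02. One of those probes rose, Rpl29 (0.38, SE 0.087, limma adjusted p = 0.0208), which is named because it was the only one called. Complex I, whose mitochondrial subunits this ribosome makes and whose nuclear subunits were measured here, had 21 of 39 below 0 with a median of -0.01 and 0 called (4 at an unadjusted p under 0.05).

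On single arrays, the mean of the 95 probes minus that of all compared probes was 0.632, 0.573, 0.567 and 0.629 with methanol and 0.700, 0.632, 0.673 and 0.672 with saline. The saline arrays lay higher, with methanol 1 and saline 2 at the same value. The group means were 0.600 (SD 0.035, n = 4) and 0.669 (SD 0.028, n = 4), a gap of -0.0692. With median scaling in place of quantile normalization the ranges were 0.559 to 0.671 with methanol and 0.633 to 0.700 with saline. They overlapped then.

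**Figure D4:**
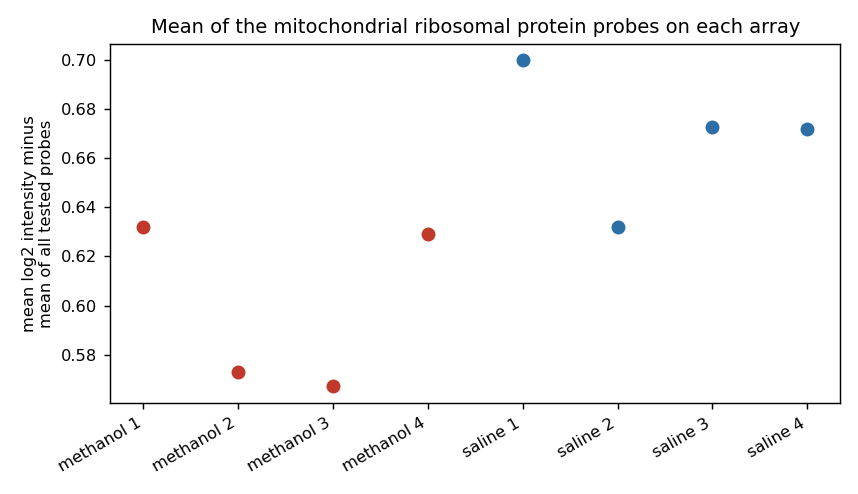
Mean log2 intensity of the 95 member probes minus the mean of all compared probes, for each array (axis not from 0). The methanol arrays lie at 0.567 to 0.632 and the saline arrays at 0.632 to 0.700.

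In 22 of the 95 probes (23.2%) the methanol and saline arrays did not overlap, against 12.4% of all compared probes. Of these, 5 were higher with methanol on every array (5.26%, background 6.6%) and 17 lower (17.9%, background 5.77%). With median scaling 3 members were higher (3.16%, background 3.38%) and 4 lower (4.21%, background 3.79%), so the share of lower members was then near that of all probes. The 17 lower probes include the 2 called and 15 more, for 14 genes, with changes of -0.53 to -0.15 and limma adjusted p of 0.055 to 0.282.

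The largest of these 15 was Mrps2, whose bacterial counterpart lies at the back of the small subunit. It read 6.89, 6.46, 6.82 and 6.14 with methanol and 7.29, 7.22, 6.99 and 6.93 with saline (change -0.53, SE 0.16, limma adjusted p = 0.0743). The methanol arrays were widely spread. Mrpl57, a large subunit protein added in mitochondria, read 7.01, 6.68, 6.86 and 6.88 against 7.46, 7.04, 7.23 and 7.40 (change -0.43, SE 0.12, limma adjusted p = 0.055). It came just short of the threshold and passed it without saline 2 (-0.51), with robust moderation and among probes detected on all 8 arrays.

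Mrps10 was lower on every methanol array with 2 probes. Its probe ILMN_2841840 changed by -0.35 (SE 0.11, limma adjusted p = 0.0715), and ILMN_2691360 by -0.20 (SE 0.085, limma adjusted p = 0.194). The first passed the test without saline 1 (-0.41). Mrpl1, part of the mobile stalk that helps spent tRNAs to leave, read 7.34, 7.53, 7.42 and 7.26 with methanol and 7.59, 7.77, 7.65 and 7.75 with saline (change -0.30, SE 0.099). Mrpl12, a stalk protein that also binds the mitochondrial RNA polymerase in human cells, read 9.62, 9.58, 9.59 and 9.66 against 9.87, 9.78, 9.72 and 9.68 (change -0.15, SE 0.074). Its groups stood apart by a narrow margin, between methanol 4 and saline 4.

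The rest of the lower probes without overlap were spread over both subunits. In the large subunit they were Mrpl16 (-0.32), whose bacterial counterpart helps to place the tRNA, Mrpl54 (-0.25), Mrpl27 (-0.20), near the peptidyl transferase centre, and Mrpl49 (-0.19). In the small subunit they were Mrps11 (-0.30), Mrps15 (-0.24), Mrps22 (-0.22), Mrps16 (-0.20) and Mrps26 (-0.20). For these 9, the limma adjusted p was not under the threshold. The other compared probes of Mrpl49 changed by 0.19 and -0.06, that of Mrps11 by 0.07 and that of Mrps26 by -0.14.

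The only probe higher on every methanol array that was not called was ILMN_1231390 of Mrpl3, a homologue of a bacterial protein that starts assembly of the large subunit. It read 8, 8.07, 8.10 and 8.30 with methanol and 7.80, 7.78, 7.78 and 7.82 with saline (change 0.32, SE 0.092, limma adjusted p = 0.0568). The saline arrays were nearly equal. The probe passed the test with robust moderation and among probes detected on all 8 arrays.

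Other members at the ends of the range had overlapping groups. Mrpl36, a small zinc-binding protein of the large subunit, read 9.04, 9.17, 9.39 and 9.31 with methanol and 9.63, 9.67, 9.30 and 9.98 with saline (change -0.42, SE 0.12, limma adjusted p = 0.0665). Saline 3 lay among the methanol arrays, and without it the change was -0.53 and passed the test. One of the 3 Mrps25 probes, ILMN_2680111, changed by -0.37 (SE 0.14, limma adjusted p = 0.135). Upward, Mrps18c (0.21), Mrpl18 on 1 of its 2 probes (0.21), Mrpl48 on 1 of 3 (0.19), Mrpl49 on 1 of 3 (0.19) and Mrps6 (0.18) followed the called members, and none of them passed the test.

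The 3 brightest probes belonged to Mrps33 (mean 11.07), Mrps24 (11.04) and Mrps12 (10.52), and the 3 dimmest to Mrpl49 (5.38), Mrpl45 (5.45) and Mrpl51 (5.53). Brightness depends on the probe, so this is no order of the transcripts. The bright Mrps24, a protein at the entry of the message, changed by 0.06 (SE 0.081, limma adjusted p = 0.719). Mrpl45, which faces the inner membrane, changed by 0.05 (SE 0.17, limma adjusted p = 0.913).

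Of the genes, 20 had more than 1 compared probe (16 with 2 and 4 with 3), which gave 28 pairs of probes. The probes of 19 of these genes carried the same transcript accession in the platform annotation, and those of Mrps33 carried different ones. The median absolute difference between the changes of 2 probes of a gene was 0.12, and in 10 pairs the changes had opposite signs. The SE of a single change ran from 0.073 to 0.21 over the compared members, so a difference of the median size cannot be told from that spread. Probes of 1 gene were not treated as replicates of each other, and where a gene has a single probe no such comparison exists.

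In 5 pairs the ratio between the probes did not overlap between methanol and saline arrays, a comparison chosen after the values were seen. These were Mrpl47 (-0.41 and 0.12), Mrpl3 (0.32 and -0.15), Mrps7 (0.45 and 0.06), Mrps11 (-0.30 and 0.07) and Mrpl33 (-0.11 and 0.08). Groups without overlap give an exact permutation p of 0.0286 (two-sided) by construction, the smallest that 70 assignments of 8 arrays allow. After Benjamini-Hochberg adjustment over the 28 pairs it was 0.16, a value that 5 such pairs cannot bring under the threshold in this design. For Mrpl47 the second probe, ILMN_1226238, read 6.62, 6.31, 6.31 and 6.34 with methanol and 6.62, 5.96, 5.97 and 6.56 with saline. The called fall of Mrpl47 was not seen with it (0.12, SE 0.17).

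**Figure D5:**
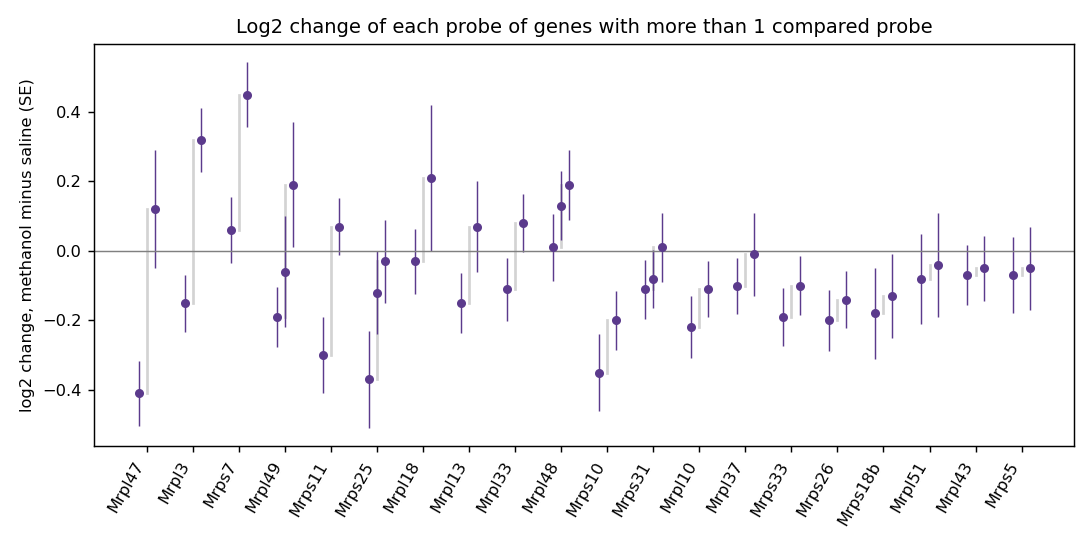
Log2 change (methanol minus saline, with SE) of each probe of the 20 genes with more than 1 compared probe, ordered by the distance between the probes of a gene. The probes of Mrpl47, Mrpl3 and Mrps7 lie farthest apart, and those of Mrps5 and Mrpl43 nearly coincide.

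Genes that lie within 3 kb of a called member in the RefSeq annotation were looked up after the values were seen. Tmem63b, a membrane channel gene next to Mrpl14, fell on 1 of its 2 probes (-0.67, SE 0.11, limma adjusted p = 0.00205) and changed by -0.30 (SE 0.19, limma adjusted p = 0.404) on the other, while Mrpl14 rose. Sars2, beside Mrps12, changed by 0.10 (SE 0.15, limma adjusted p = 0.753). Ndufb5 and Actl6a, beside Mrpl47, changed by 0.14 (SE 0.092, limma adjusted p = 0.43) and 0.26 (SE 0.11, limma adjusted p = 0.193). Beside Mrps7, Gga3 changed by -0.15 and 0.11 on its 2 probes and Mif4gd by 0.01, none of them called. None of the neighbours named here passed the test in the direction of the member.

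The other machinery of mitochondrial translation was counted from lists of known genes in the same fit. Of 19 compared tRNA synthetase and amidotransferase probes, 1 was called higher and 0 lower (median -0.08). The called share was 5.26%, near the 5.6% of all compared probes. The riser was Wars2, which charges the mitochondrial tRNA for tryptophan. It read 6.63, 6.93, 6.85 and 6.96 with methanol and 6.04, 6.40, 6.41 and 6.12 with saline (change 0.60, SE 0.13, limma adjusted p = 0.0156). The methanol arrays were all above the saline arrays, for 1 probe of this list (5.26%, background 6.6%). In the other direction, 2 probes were lower on every methanol array (10.5%, background 5.77%). These were Fars2 (-0.26) and ILMN_2647156 of Gatb (-0.30), neither of them called, while the other Gatb probes changed by 0.09 and 0.18.

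No probe was called in the other lists. The 6 probes of mitoribosomal proteins with other symbols (2 at an unadjusted p under 0.05) had a median of 0.16, with the 4 probes of Dap3, a GTP-binding protein of the small subunit, at 0.14 to 0.27 and Ptcd3, of the same subunit, at -0.19. The 10 probes of translation factors (2 at an unadjusted p under 0.05) had a median of 0.01, with the elongation factor Tufm at 0.02. The 25 of ribosome assembly and rRNA processing (4 at an unadjusted p under 0.05) had a median of 0.02, with the protease subunit Spg7 highest at 0.32 (SE 0.094, limma adjusted p = 0.0615). Of these 25, 2 were higher on every methanol array (8%, background 6.6%) and 0 lower (background 5.77%). The 2 were Spg7 and ILMN_2759652 of Rbfa (0.24), whose other probe changed by 0.04. In the first 2 of these lists all groups overlapped.

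The 16 probes of mitochondrial transcription and RNA stability (3 at an unadjusted p under 0.05) had a median of -0.15. They include Lrpprc and Slirp, partners that stabilise mitochondrial messages. The 3 Lrpprc probes changed by -0.40, -0.38 and -0.21, and the 2 Slirp probes by -0.25 and 0.09. One probe of each was lower on every methanol array, ILMN_2845214 of Lrpprc (limma adjusted p = 0.116) and ILMN_2684667 of Slirp (limma adjusted p = 0.0901). They were 2 of the 16 probes (12.5%, background 5.77%), and 0 were higher on every methanol array (background 6.6%). Tfam, which packs mitochondrial DNA and takes part in its transcription, changed by -0.16 and -0.15 on its 2 probes.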

How the data were processed

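Brain RNA of 4 methanol and 4 saline arrays was compared, grouped by the sample labels. The authors deposited 2 tables. One held un-normalized probe intensity (medians 179.5 to 193.7 with methanol, 175.6 to 195.8 with saline), and was used. The other is titled as non-normalized, but its sorted values are identical on all 8 arrays, so its deposited intensity values were taken as already normalized between arrays by the authors (the methods name cubic spline normalization in GenomeStudio). It served as an alternative, and the detection p-value of each probe and array was deposited with it. Here, background was corrected from the detection p-values (normexp, offset 16), followed by quantile normalization and log2 (neqc, limma 3.58.1, R 4.3.3). The correction affects dim probes most, whose changes grow as background is removed. Probes with a detection p under 0.05 on at least 4 arrays were fitted without covariates by lmFit and eBayes with a variance trend, tested on simulated data first. The number of arrays limits the precision. Probe symbols came from the platform annotation, and 1719 probes had no gene there. Values are log2 intensity, changes are methanol minus saline, SD is over 4 arrays and SE is that of the fit.

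Named were members that were called, did not overlap between groups, had the 10 highest or lowest changes, were brightest or dimmest, had several probes, or lay at the detection minimum. The members and lists were chosen with earlier results of these data known. Alternatives changed the scaling, table, background, offset, filter, variance prior, array weights, block, call rule, probes per gene and arrays left out. A slide block was not fitted, since the tables name no slides. Promoters were taken from RefSeq (GRCm38.p6). Replicate numbers of the labels were checked for pairing, and no column of the tables was left unused.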

Additional observations from a re-analysis of the deposited data

Results flagged for a closer look

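Among 60 groups of 4 arrays examined, 2 held an array far from the others, where chance flags about 1 in 20. For Mrpl11, saline 2 lay at 7.77 while the other saline arrays lay at 7.61 on the log2 scale (gap over range 0.97). For Mrpl54, saline 1 lay at 9.09 and the others at 8.86 to 8.90 (gap over range 0.833).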

How the results depend on the processing

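With median scaling the calls over all probes were 161 higher and 168 lower, against 372 and 297, and those of members 1 higher (Mrpl14) and 0 lower. Probes without overlap were then 403 higher and 453 lower over all and 3 higher and 4 lower among members, while 72 of 95 members still lay below 0. Without a variance trend 2 members were higher (2.11%, against 2.11% of all probes). With no filter 1 member was lower (0.909%, against 1.07% of all probes). With a fold limit of 1.3 added, 1 member was lower (1.05%, against 2.09% of all probes). Leaving out 1 array gave 204 to 465 higher and 152 to 433 lower over all, and 2 to 4 members higher and 0 to 3 lower. Over all probes the fewest remained without saline 4 (204 higher) and saline 3 (152 lower). Among members 2 were called higher without methanol 1, saline 3 or saline 4, and 0 lower without methanol 4 or saline 4. Without overlap over all probes were then 966 to 1144 higher (8.09% to 9.58%) and 844 to 1123 lower (7.07% to 9.41%). Among members 5 to 7 were higher without overlap (5.26% to 7.37%) and 17 to 22 lower (17.9% to 23.2%). The median change of members ran from -0.10 to -0.05 over all alternatives. Between the arrays of the same replicate number, deviations from the group means correlated at 0.18, -0.11, -0.01 and 0.25. Arrays of unlike number were not set beside them, so these values cannot settle whether the numbers pair the samples. With the replicate block 476 probes were higher and 483 lower, of which 4 and 5 were members, the added ones being Mrps2, Mrpl57 and Mrpl36. Over all alternatives, 483 changes of named probes kept their direction and side of the threshold, 27 lost and 10 gained a call, and 0 reversed. The cause of these differences was not tested. The analysis with a slide block was not run. With 4 arrays a group, dim probes such as those of Mrpl18 and Mrps27 (SE 0.21) gave the least precise changes.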
